A study of Mus musculus with 14 samples.

Results

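Long-term haematopoietic stem cells (LT-HSCs) of mice carrying the AML1-ETO fusion were compared with LT-HSCs of control mice over all genes by RNA sequencing. The comparison used the 3 AML1-ETO and the 4 control LT-HSC libraries, 7 of the 14 bulk libraries of the series; the other 7 are of granulocyte-monocyte progenitors (GMPs) and served only to set the LT-HSC effect beside that in another cell type. All mice were C57BL/6 and the cells came from bone marrow. The AML1-ETO mice had the genotype Runx1-Runx1t1, switched on by Mx1-Cre, a recombinase under an interferon-responsive promoter that acts in the blood system and in other tissues as well. The control mice are given as wild type. If that means without Mx1-Cre, effects of the recombinase cannot be told apart from those of the fusion. Poly(I:C), the inducer of Mx1-Cre, is recorded for both genotypes, at 5 mg/kg in 4 injections, so the injections themselves are shared by the groups. Sort markers, age and sex, and the time between the last dose and the sort are not stated in the labels. Nothing there says that each library is of its own mouse, so the p-values reflect only the variation among these libraries, part of which may be technical.

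AML1-ETO joins the DNA-binding domain of RUNX1, a transcription factor that blood stem cells need to form, to most of RUNX1T1, a co-repressor that recruits histone deacetylases. The fusion arises from the t(8;21) translocation of acute myeloid leukaemia, binds many sites that RUNX1 binds, and alone gives a pre-leukaemic state more than overt leukaemia. LT-HSCs divide rarely, make little protein for their size, hold few transcripts of mature lineages and are kept by cytokines such as thrombopoietin and stem cell factor.

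The LT-HSC libraries held 13210952 to 17626822 counts. Levels below are CPM, counts scaled to an equal library size, after TMM normalisation; changes are log2 fold changes of AML1-ETO over control with their SE, and a gene was called changed at an adjusted p under 0.05 (edgeR's quasi-likelihood test, Benjamini-Hochberg over all genes tested). Genes with at least 1 count numbered 16427 to 18106 in the AML1-ETO libraries and 12106 to 15329 in the controls, without overlap (two-sided exact permutation test, p = 0.0286, the smallest that 35 arrangements allow; 0.143 adjusted over 5 measures). The AML1-ETO libraries correlated with each other at 0.931 to 0.955 (Pearson, log2 CPM) and the controls at 0.760 to 0.842. Control replicate 3 stood apart: of the 7781 genes whose median over libraries reached 20 CPM, 105 were below 0.2 CPM there and 1 to 8 in each other library. Immunoglobulin genes took 0.0178% to 0.0937% of counts in the AML1-ETO libraries and 1.92% to 10.4% in the controls, where control replicate 2 was the highest. Xist, the RNA of the inactive X chromosome, chosen after its values were seen, stood at 5.73, 0.3304 and 4.09 CPM versus 698, 38.9, 7.83 and 156 CPM. It was called lower, without overlap, at a log2 fold change of -6.03 ± 1.64 (BH-adjusted p = 0.0473). Ddx3y of the Y chromosome stood at 177, 136 and 119 CPM versus 62.7, 135, 174 and 160.5 CPM. Eif2s3y, Kdm5d and Uty, also Y-linked, were present in every library. None of these Y-linked genes was called, though the groups did not overlap for Kdm5d. The labels give no sex. The parts of the fusion checked the labels: Runx1t1 stood at 94.4, 176 and 133 CPM versus 4.12, 0, 18.1 and 11.3 CPM, without overlap, and Runx1 at 317, 474 and 320.3 CPM versus 196, 140.0, 134 and 169 CPM. Their log2 fold changes were 4.00 ± 1.08 (BH-adjusted p = 0.0468) and 1.21 ± 0.22 (BH-adjusted p = 0.0108). Not called without the library in brackets were Runx1 (AML1-ETO replicate 2) and Runx1t1 (AML1-ETO replicates 1, 2 and 3 and control replicates 1 and 4). Runx1t1 reached the highest adjusted p then, 0.176. Where brackets hold several libraries, here and below, each was left out alone.

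Of 14589 genes tested, 1791 (12.3%) were called, 1107 (7.59%) upward and 684 (4.69%) downward with the fusion. Among called genes the median size of the log2 fold change was 1.67 for rises and 2.19 for falls. Among the 666 genes with a mean under 1 CPM 100 were called higher and none lower. The filter asks for a minimum level in as many libraries as the smaller group has, 3. Such genes can therefore pass through the AML1-ETO libraries alone. Their one direction, and the number of rises from 0, are read no further. In all, 245 of the 1107 rises had no count in any control library, and 43 of the 684 falls had none in any AML1-ETO library. The count depended on the libraries: without AML1-ETO replicate 1, 2 or 3 it was 352, 223 or 404 higher and 182, 111 or 285 lower, and without control replicate 4 it was 714 and 433. Upper-quartile scaling moved the median of all genes from 0.03 to -0.102 and the share of rises among calls from 61.8% to 51.7%, and DESeq2 gave a share of 46.9%, so changes below are relative to the scaling.

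The 12 rises and 12 falls with the smallest p were taken among called genes at 5 CPM or more in both genotypes. No overlap between the groups was a condition of this choice. All were called in every fit that left out 1 library. Serpinb1a (chromosome 13, 32842092 to 32851185), an inhibitor of the serine proteases of neutrophil granules, stood at 662, 661 and 790.2 CPM in the AML1-ETO libraries and 21.3, 21.3, 25.8 and 11.6 CPM in the control libraries. It had a log2 fold change of 5.14 ± 0.29 (SE, adjusted p = 0.000399), and its lowest AML1-ETO library lay far above its highest control library. Osm (chromosome 11, 4236420 to 4241026), the IL-6 family cytokine oncostatin M, stood at 516, 577 and 349 CPM versus 9.46, 17.4, 21.8 and 15.5 CPM, a log2 fold change of 4.90 ± 0.33 (SE, adjusted p = 0.000502). Lat2 (chromosome 5, 134600022 to 134615025), an adaptor that mast cells use downstream of the IgE receptor, stood at 293, 245 and 230.2 CPM versus 12.5, 20.1, 24.5 and 14.4 CPM, a log2 fold change of 3.84 ± 0.27 (SE, adjusted p = 0.000502). Cep85, a centrosomal protein, was the most abundant of the 12 after Cpa3 and rose from 126 ± 29.5 to 1704 ± 211 CPM.

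Among the remaining rises were Slc7a8, a transporter of large neutral amino acids, which rose from 23.4 ± 9.81 to 703 ± 134 CPM, and Nudt7, a peroxisomal hydrolase of coenzyme A, which rose from 8.54 ± 1.12 to 91.6 ± 8.7002 CPM. Tent5a, a non-canonical poly(A) polymerase, had a log2 fold change of 4.19 ± 0.30 (BH-adjusted p = 0.000512), and Nlrc3, an intracellular receptor of the NLR family that dampens innate signalling, one of 4.17 ± 0.28 (BH-adjusted p = 0.000502). Rasal3, a RAS GTPase activating protein of blood cells, and Fxyd5, a regulator of the sodium pump, rose by 2.07 ± 0.17 and 2.06 ± 0.16 with tight replicates. Fxyd5 stood at 495, 450.2 and 445 CPM versus 124, 119, 97.4 and 104 CPM. Cpa3 and Cd34 complete the 12 and are described with their lists.

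The falls were led by Zfp385a (chromosome 15, 103313895 to 103340093), a zinc finger protein that binds RNA and p53, at 7.903, 11.2 and 9.73 CPM in the AML1-ETO libraries and 98.2, 78.3, 111 and 117 CPM in the control libraries. It had a log2 fold change of -3.40 ± 0.26 (SE, adjusted p = 0.000594). Abcb4, a phosphatidylcholine transporter, fell from 137 ± 41.1 to 9.34 ± 3.37 CPM, and Aplp2, a homologue of the amyloid precursor protein, fell from 246 ± 60.1 to 52.99 ± 4.89 CPM. Irak3, an inhibitor of Toll-like receptor signalling, stood at 4.35, 4.13 and 6.75 CPM versus 65.3, 50.9, 64.2 and 29.4 CPM, a log2 fold change of -3.37 ± 0.41 (SE, adjusted p = 0.00271). Myh10, the heavy chain of non-muscle myosin IIB, and Srgap3, a protein that activates small GTPases, fell by log2 fold changes of -3.36 ± 0.40 (BH-adjusted p = 0.00264) and -3.01 ± 0.33 (BH-adjusted p = 0.00188). Pole, the catalytic subunit of DNA polymerase epsilon, and Timeless, which guards the replication fork, had log2 fold changes of -2.31 ± 0.27 (BH-adjusted p = 0.00236) and -2.53 ± 0.29 (BH-adjusted p = 0.00206). Tfr2, the transferrin receptor of liver and erythroid cells, had a log2 fold change of -2.27 ± 0.25 (BH-adjusted p = 0.00188). Tnfaip2, induced by tumour necrosis factor, and Cpne2, a copine that binds membranes through calcium, had log2 fold changes of -2.95 ± 0.33 (BH-adjusted p = 0.00201) and -1.76 ± 0.20 (BH-adjusted p = 0.00218).

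**Figure D1:**
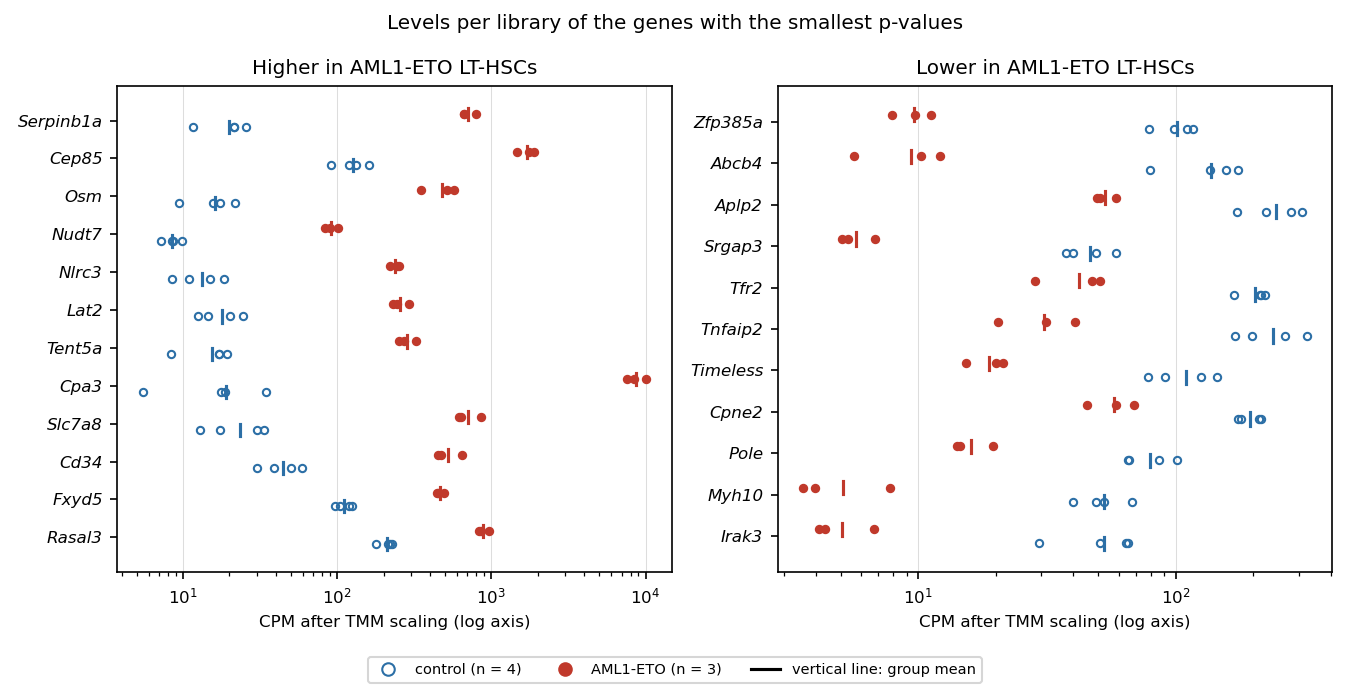
CPM per library on a log axis for the 12 rises (left) and 11 of the 12 falls (right) with the smallest p, with open circles for the 4 control and filled circles for the 3 AML1-ETO LT-HSC libraries and vertical lines at the group means. Genes were chosen among those without overlap between the groups, and Cpa3 has the widest gap.

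Gene lists were described by how many of their tested members were called, beside the shares over all genes, 7.59% higher and 4.69% lower, and by their median log2 fold change, beside 0.03 over all genes. The shares varied with level. Of 2456 genes with a mean of 100 CPM or more 495 were higher and 119 lower. Of 3034 genes from 5 to 20 CPM 53 were higher and 156 lower. The lists were not matched for level, so the shares over all genes are a rough yardstick. The list of mast cell and basophil genes had the highest share of rises, 16 of 22, and the lists of DNA replication and mitosis the highest shares of falls, 20 of 27 and 17 of 27. Progenitor identity (9 of 20), the cytokine receptors (13 of 30) and JAK-STAT (9 of 24) followed on the rising side, and on the falling side erythroid genes (10 of 20), B cell genes (10 of 21), T and NK cell genes (5 of 13), ribosome biogenesis (11 of 29) and one-carbon metabolism (10 of 28).

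**Figure D2:**
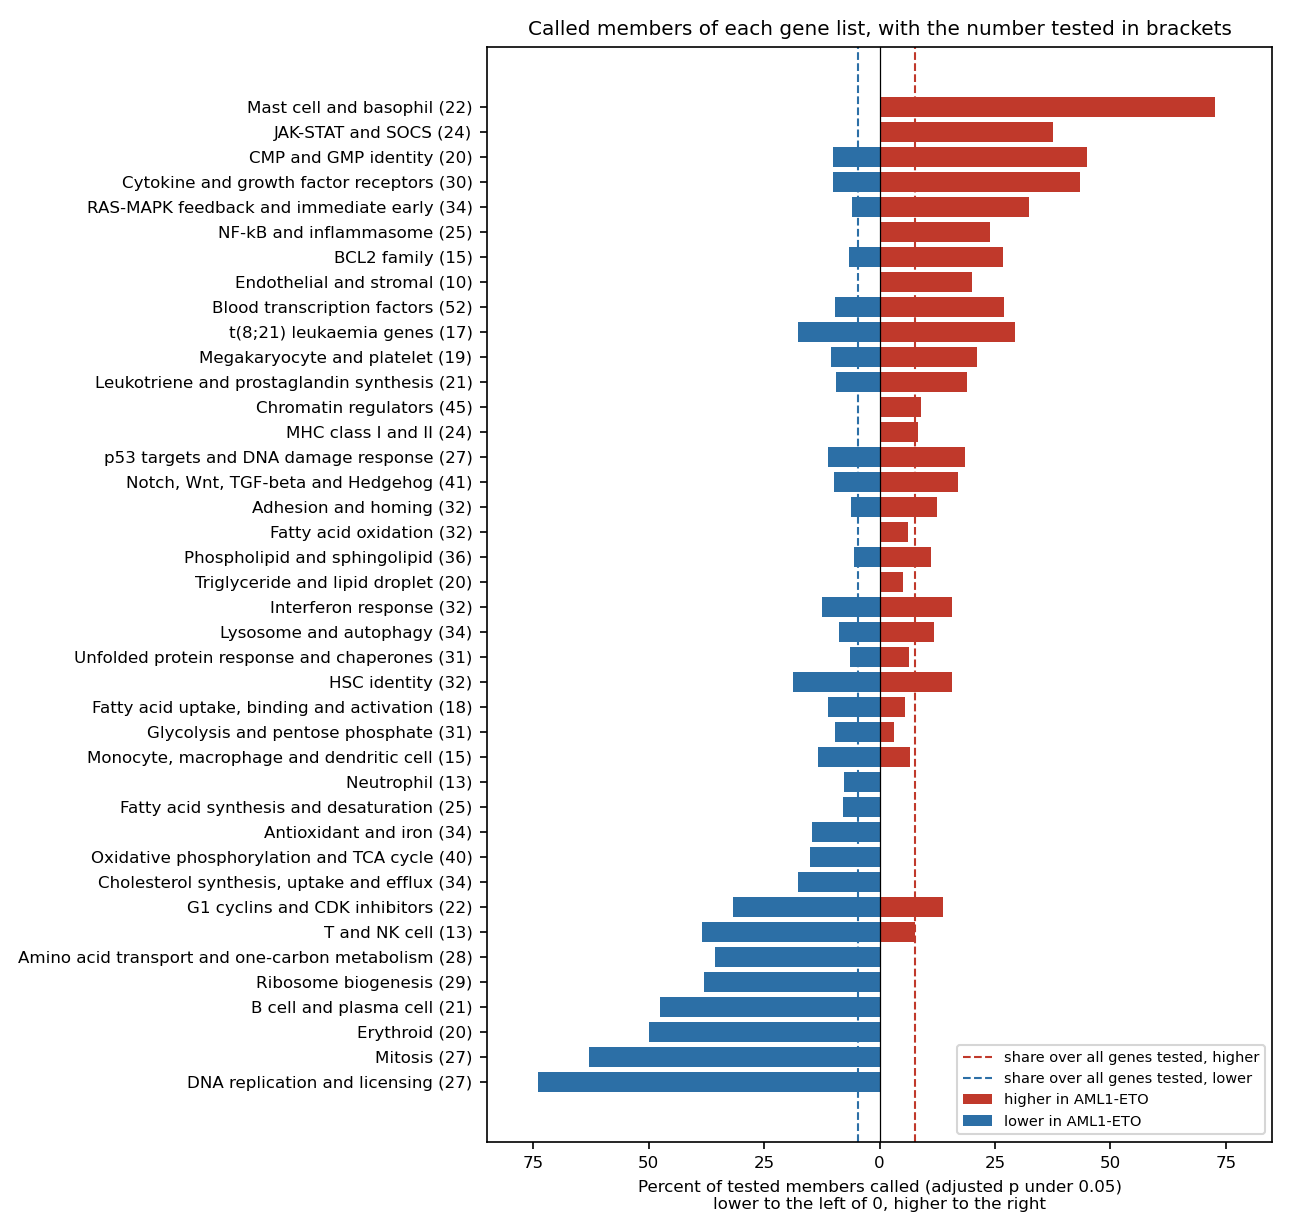
Bars give the percent of tested members of each of 40 gene lists called higher (right of 0) or lower (left of 0) in AML1-ETO LT-HSCs, with the number tested in brackets; dashed lines mark the shares over all 14589 genes tested, 7.59% higher and 4.69% lower. Mast cell genes stand at the top and DNA replication genes at the bottom.

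Genes that mark stem cells changed in both directions, 5 of 32 higher and 6 lower, with a median of 0.11 that turns to -0.01 with upper-quartile scaling. Procr, Slamf1 and Hlf, markers in wide use for mouse LT-HSCs and picked here as defining ones after their values were seen, were present in both genotypes and did not pass the test: Procr stood at 80.4, 41.8 and 68.7 CPM versus 133, 85.7, 0 and 42.6 CPM, with a log2 fold change of -0.04 ± 1.24 (BH-adjusted p = 0.993), and Hlf at 252, 298 and 193 CPM versus 308, 257, 46.4 and 159.8 CPM, with 0.36 ± 0.52 (BH-adjusted p = 0.763). Slamf1 had a log2 fold change of 0.19 ± 0.37 (BH-adjusted p = 0.834). The rises were Cd34, Eng, Cd48, Gata2 and Kit. Cd34 (chromosome 1, 194938819 to 194961279), a surface sialomucin of progenitors that adult mouse LT-HSCs largely lack, stood at 646, 471 and 448 CPM versus 49.9, 58.96, 39.1 and 30.3 CPM, a log2 fold change of 3.55 ± 0.27 (SE, adjusted p = 0.000594). Cd48, a SLAM family protein by whose absence mouse LT-HSCs are often sorted, was at 0 in 2 controls and stood at 199.8, 276 and 217 CPM versus 7.34, 12.4, 0 and 0 CPM, a log2 fold change of 5.54 ± 1.35 (SE, adjusted p = 0.0345). Eng, the TGF-beta co-receptor endoglin, had one of the tightest contrasts, 559, 691 and 656 CPM versus 217, 213, 196 and 217 CPM. Gata2 and Kit, a transcription factor and the stem cell factor receptor that stem and mast cells share, rose by 0.86 ± 0.22 (BH-adjusted p = 0.0390) and 0.79 ± 0.21 (BH-adjusted p = 0.0436). Lost on leaving out the library in brackets were Cd48 (AML1-ETO replicates 1, 2 and 3 and control replicate 1), Gata2 (AML1-ETO replicates 1, 2 and 3 and control replicates 2 and 4) and Kit (AML1-ETO replicates 1, 2 and 3 and control replicates 2, 3 and 4). Kit reached the highest adjusted p then, 0.191.

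The 6 falls included regulators of stem cell self-renewal. Mecom, the zinc finger factor EVI1 on which LT-HSCs depend, stood at 12.8, 4.38 and 17.6 CPM versus 183, 100.02, 41.7 and 119 CPM, a log2 fold change of -3.25 ± 0.62 (SE, adjusted p = 0.0133). Mycn (chromosome 12, 12936093 to 12941914), the MYC paralogue of immature cells, was at 0 in 2 AML1-ETO libraries and stood at 0, 0 and 1.75 CPM versus 90.8, 85.9, 80.8 and 103 CPM. Mllt3, a reader of histone acylation that maintains human stem cells in culture, had a log2 fold change of -2.16 ± 0.34 (BH-adjusted p = 0.00731), Hoxa9 one of -2.90 ± 0.62 (BH-adjusted p = 0.0209) and Ctnnal1, alpha-catulin, one of -3.12 ± 0.45 (BH-adjusted p = 0.00525). Neo1, a netrin receptor of dormant stem cells, had no count in the AML1-ETO libraries and stood at 4.17 to 29.97 CPM in the controls, at least 253-fold lower against a floor of 3 counts over the group. In bulk RNA, fewer cells of a type and less RNA per cell cannot be told apart, for these and for all genes below. Folds given as at least, here and below, allow for counting error alone. Zeros also differ between control libraries: Procr stood at 133 CPM in control replicate 1 and at 0 in control replicate 3. Of this list's counts, rises came to 2 without AML1-ETO replicate 1, 2 without AML1-ETO replicate 2, 2 without AML1-ETO replicate 3 and 3 without control replicate 4, and falls to 3 without AML1-ETO replicate 2. The calls that 1 library decided, in brackets, were Mllt3 (AML1-ETO replicate 2), Mecom (AML1-ETO replicates 1 and 2) and Hoxa9 (AML1-ETO replicates 1, 2 and 3). Hoxa9 reached the highest adjusted p then, 0.112.

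Genes of common myeloid and granulocyte-monocyte progenitors were higher for 9 of 20 tested members and lower for 2. Mpo, the myeloperoxidase of azurophil granules, stood at 507, 563 and 437 CPM versus 141, 43.8, 31.8 and 81.3 CPM, a log2 fold change of 2.75 ± 0.47 (SE, adjusted p = 0.00913); Ctsg and Gfi1 rose too. Prtn3, proteinase 3 of the same granules, was called lower although its groups overlapped, at 19.9, 9.33 and 15.2 CPM versus 123, 76.2, 19.4 and 48.7 CPM. Elane, neutrophil elastase, had no count in the AML1-ETO libraries and stood at 46.5, 12.6, 0 and 37.3 CPM in the controls, and missed the threshold (adjusted p = 0.0529), so the genes of azurophil granules did not move one way. Csf3r, the G-CSF receptor, stood at 465, 565 and 473 CPM versus 93.1, 73.1, 17.9 and 41.9 CPM, and Srgn, the proteoglycan core of granules, rose from 444 ± 51.9 to 1718 ± 391 CPM. Ly6c2, a surface protein of monocytes and their progenitors, fell from 131 ± 92.5 to 1.66 ± 1.49 CPM. The count of rises was 3 without AML1-ETO replicate 1, 2 without AML1-ETO replicate 2 and 4 without AML1-ETO replicate 3. Calls lost without a library, given in brackets, were those of Mpo (AML1-ETO replicate 2), Ctsg (AML1-ETO replicates 1, 2 and 3) and Gfi1 (AML1-ETO replicates 1, 2 and 3 and control replicates 2 and 4). The same held for Prtn3 (AML1-ETO replicates 1, 2 and 3 and control replicates 1, 2 and 4). Prtn3 reached the highest adjusted p then, 0.206.

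Mast cells and basophils are granulated cells that carry the high-affinity IgE receptor, store proteases and histamine and depend on KIT (mast cells) or IL-3 (basophils). Of 22 tested members of their list 16 were higher and none lower, with a median log2 fold change of 5.23. Proteases were the highest: Cpa3 (chromosome 3, 20215620 to 20242181), carboxypeptidase A3, stood at 7641, 10126 and 8407 CPM versus 5.46, 17.7, 34.6 and 18.7 CPM, a log2 fold change of 8.83 ± 0.65 (SE, adjusted p = 0.000582). Of the receptors, Il1rl1, the IL-33 receptor, stood at 610.5, 1009 and 885 CPM versus 6.19, 34.98, 30.98 and 20.4 CPM, a log2 fold change of 5.17 ± 0.55 (SE, adjusted p = 0.00174). Fcer1a, the IgE-binding chain, stood at 57.8, 25.2 and 50.3 CPM versus 0, 0, 0 and 0 CPM, at least 906-fold higher than a floor of 3 counts over the control group. Slc45a3 and Cd63, a solute carrier and a tetraspanin of granule membranes, had log2 fold changes of 4.70 ± 0.42 (BH-adjusted p = 0.00119) and 3.05 ± 0.34 (BH-adjusted p = 0.00201). Enzymes of histamine and leukotriene synthesis (Hdc, Alox5ap, Ltc4s), the amine loader Slc18a2 and the factor Mitf were among the other rises. With 1 library left out, 11 to 17 members rose. The summed level of the list's 24 genes was 12377 to 15218 CPM in AML1-ETO and 425.4 to 632.2 CPM in control libraries, and Mcpt4, Tpsab1, Fcer1a, Ltc4s and Mrgprb1 were at 0 in every control. Without the bracketed library, calls were lost for Hdc and Mitf (AML1-ETO replicates 1 and 2) and Ltc4s (AML1-ETO replicates 1, 2 and 3). Ltc4s reached the highest adjusted p then, 0.147. Whether these transcripts lay in LT-HSCs or in other cells of the sort was not tested.

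RUNX1 and GATA factors bind promoters and enhancers of blood genes. Promoters of called mast cell and erythroid genes were read from RefSeq (GRCm38.p6, the build of the files) over the 250 bases before the first listed start. Sequences are 5′ to 3′ on the gene's strand, with the RUNX core motif (TGTGGT or its reverse complement ACCACA) and the GATA motif (AGATAA or TTATCT) in capitals. They are the called members with a RUNX core in this window and no annotated exon there: Cpa3 (chr3:20242182-20242431, minus strand) and Fcer1a (chr1:173227230-173227479, minus strand), which rose, and Epor (chr9:21963577-21963826, minus strand), which fell.
Cpa3: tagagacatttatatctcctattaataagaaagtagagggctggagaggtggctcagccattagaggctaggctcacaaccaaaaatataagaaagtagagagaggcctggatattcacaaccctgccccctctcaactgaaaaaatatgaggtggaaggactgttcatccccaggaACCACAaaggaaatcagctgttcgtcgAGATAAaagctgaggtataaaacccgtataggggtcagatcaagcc
Fcer1a: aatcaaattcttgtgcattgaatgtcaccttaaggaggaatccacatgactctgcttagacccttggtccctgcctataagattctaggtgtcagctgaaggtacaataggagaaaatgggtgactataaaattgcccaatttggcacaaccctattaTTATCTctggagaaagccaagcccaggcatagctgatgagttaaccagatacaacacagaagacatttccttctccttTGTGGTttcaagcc
Epor: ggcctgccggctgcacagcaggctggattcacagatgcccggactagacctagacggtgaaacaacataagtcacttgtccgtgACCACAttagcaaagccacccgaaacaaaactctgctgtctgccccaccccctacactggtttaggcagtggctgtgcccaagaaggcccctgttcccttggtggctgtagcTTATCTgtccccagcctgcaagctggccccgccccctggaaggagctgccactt
The RUNX core was a condition of this choice, and these 3 windows also hold the GATA motif. Mcpt4, Mcpt8, Ltc4s, Mitf and Klf1 are called members with a RUNX core too, left out for an annotated exon in the window. None of those held the GATA motif, so the windows shown do not stand for the called members with a RUNX core. The RUNX core was in 6 of the 13 called mast cell genes with a promoter in the table (46.2%) and in 8 of 19 tested ones, against 11.2% of all 10177 tested genes with a promoter, 11.7% of called rises and 10.1% of called falls. The GATA motif was in 5 of the 13 (38.5%) and in 5.98%, 7.04% and 6.65% of all tested genes, called rises and called falls. Of the 8 called erythroid genes with a promoter, 2 held the RUNX core and 2 the GATA motif, and of the 14 tested ones 2 and 4. Over all called genes the motif shares thus lay near those of all genes tested, whichever way the genes moved. A match is a run of letters, not a bound site, and binding was not measured here.

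Erythroid genes were lower for 10 of 20 tested members and higher for none, with a median log2 fold change of -3.08. Klf1 (chromosome 8, 84901928 to 84905291), the master factor of red cell genes, stood at 6.45, 2.89 and 6.23 CPM versus 46.04, 121, 62.02 and 113 CPM, a log2 fold change of -4.03 ± 0.49 (SE, adjusted p = 0.00273). Car1, a carbonic anhydrase of early erythroid cells, stood at 8.496, 1.49 and 9.404 CPM versus 204, 1056, 569 and 636 CPM, and all AML1-ETO values were under 10 CPM. The membrane skeleton genes Add2 and Ank1 fell by log2 fold changes of -6.85 ± 0.66 (BH-adjusted p = 0.00132) and -3.78 ± 0.47 (BH-adjusted p = 0.00295), and Epor and Tfrc, the receptors of erythropoietin and of transferrin, by -2.60 ± 0.66 (BH-adjusted p = 0.0401) and -2.96 ± 0.46 (BH-adjusted p = 0.00670). The count of falls was 6 without AML1-ETO replicate 2. Megakaryocyte genes did not move one way: 4 of 19 were higher and 2 lower. Treml1, a receptor of platelet granules, rose from 11.01 ± 7.37 to 129 ± 78.7 CPM and Gp5 rose from 39.1 ± 17.9 to 125 ± 50.7 CPM, while Gp9, a subunit of the same von Willebrand factor receptor, stood at 1.05, 0.3304 and 0.454 CPM versus 26.5, 17.02, 18.7 and 20.01 CPM, a log2 fold change of -5.04 ± 0.70 (SE, adjusted p = 0.00456). Pf4, a chemokine of platelet granules, was the other fall. Not called without the library in brackets were Tfrc (AML1-ETO replicate 2), Pf4 (AML1-ETO replicates 1 and 2 and control replicate 4) and Epor (AML1-ETO replicates 1 and 2 and control replicates 2 and 4). To these came Gp5 (AML1-ETO replicates 1, 2 and 3 and control replicates 1, 2 and 4). Epor reached the highest adjusted p then, 0.149.

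Transcripts of B cells and plasma cells were lower for 10 of 21 tested members and higher for none, with a median of -4.81. Igll1, the surrogate light chain of pre-B cells, had no count in any AML1-ETO library while it stood at 12.7 to 42.9 CPM in the controls, at least 347-fold lower. Pou2af1 and Cd79a, a coactivator and a receptor chain of B cells, stood at 2.11, 1.24 and 0.454 CPM versus 30.997, 147, 39.98 and 69.9 CPM and at 0.132, 1.98 and 0.454 CPM versus 45.8, 98.2, 49.6 and 19.9 CPM. Igkc, the kappa constant region, stood at 123, 15.4 and 78.997 CPM versus 4371, 22726, 3329 and 4417 CPM, highest in control replicate 2. The summed level of the list was 636.8 to 1245 CPM in AML1-ETO and 13604 to 76392 CPM in control libraries. Within the T and NK cell list 5 of 13 tested members fell and 1 rose. Tcf7 and Lck, a factor and a kinase of T cells, stood at 2.57, 1.49 and 1.297 CPM versus 74.2, 91.6, 548 and 88.8 CPM and at 3.36, 2.56 and 0.713 CPM versus 22.1, 27.8, 87.3 and 25.4 CPM, highest in control replicate 3. Trbc1, a T cell receptor chain, stood at 0, 0.743 and 1.17 CPM versus 24.7, 38.8, 162 and 9.35 CPM. Cd3e, Cd3g, Cd8a, Trac, Prf1 and Gzma had no count in any control, and no gene of the list was at 0 in all AML1-ETO libraries. The list's 20 genes summed to 109.4 to 161.8 CPM in AML1-ETO and 222.4 to 1047 CPM in control libraries. Il2rb, an IL-2 and IL-15 receptor chain, stood at 7.24, 2.97 and 8.43 CPM versus 42.9, 63.4, 43.6 and 42.5 CPM. Prf1, perforin, was at 0 in the controls and at 65.4, 25.9 and 9.08 CPM in AML1-ETO, the 1 rise. The part of admixed lymphoid cells in the control libraries was not tested. Not counting Trbc1, lost on leaving out the library in brackets were Lck and Prf1 (AML1-ETO replicates 1 and 2). Lck reached the highest adjusted p then, 0.0765.

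Markers of monocytes, macrophages and dendritic cells were higher for 1 (Flt3) and lower for 2 (Ctss and Ifi30) of 15 tested members. Those of neutrophils were lower for 1 (Cybb) of 13. Those of endothelial and stromal cells were higher for 2 (Pecam1 and Pdgfrb) of 10. In either direction 20%, 7.69% and 20% of these lists were called, beside 12.3% of all genes. Ctss, a lysosomal protease of antigen-presenting cells, stood at 3.23, 2.31 and 3.96 CPM versus 29.1, 151, 15.2 and 69.4 CPM. Cybb, the oxidase subunit of phagocytes, stood at 1.45, 0.248 and 1.43 CPM versus 13.95, 47.2, 13.8 and 29.4 CPM. Pecam1, an adhesion protein that stem cells also carry, rose from 70.2 ± 17.3 to 342 ± 76.5 CPM. Pdgfrb, the other rise of the endothelial and stromal list, had means of 12.47 CPM in the controls and 100.36 CPM in AML1-ETO. Of this list's 16 genes Cdh5, Lum and Dcn, picked after their values were seen, were at 0 in all 7 libraries. Col3a1 was at 0 in the AML1-ETO libraries and Pdgfra in the controls. The list summed to 508.5 to 669.5 CPM in AML1-ETO and 239.3 to 512.1 CPM in control libraries. The part of endothelial or stromal cells was not tested. The calls that 1 library decided, in brackets, were Ctss and Cybb (AML1-ETO replicates 1, 2 and 3), Ifi30 (AML1-ETO replicates 1, 2 and 3 and control replicate 2) and Pdgfrb (AML1-ETO replicates 1, 2 and 3 and control replicate 4). Pdgfrb reached the highest adjusted p then, 0.147.

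**Figure D3:**
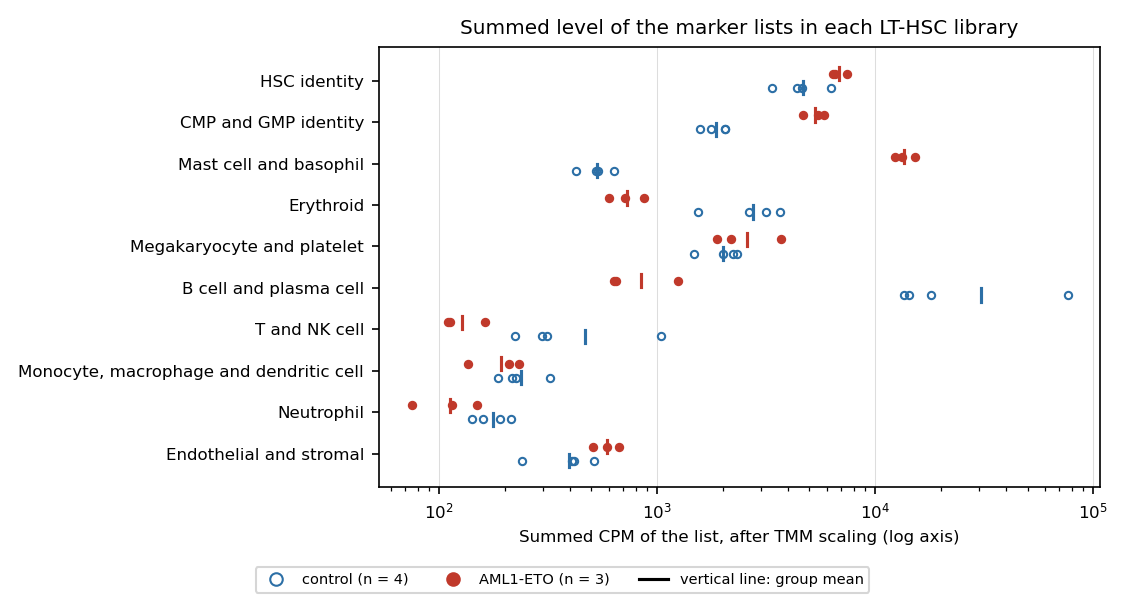
Summed CPM of 10 marker lists in each LT-HSC library on a log axis, with open circles for the 4 controls, filled circles for the 3 AML1-ETO libraries and vertical lines at group means. Mast cell genes sum to 12377 CPM or more in every AML1-ETO library and to at most 632.2 CPM in the controls, and B cell genes stand the other way round.

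Receptors for growth factors and cytokines are the route by which niche signals reach stem cells. Of 30 tested receptor genes 13 were higher and 3 lower, with a median log2 fold change of 0.73. Both copies of the common beta chain rose: Csf2rb2, which in mice serves IL-3 alone, stood at 131, 176 and 138 CPM versus 17.8, 9.59, 6.26 and 11.8 CPM, a log2 fold change of 3.70 ± 0.35 (SE, adjusted p = 0.00122), and Csf2rb, shared by IL-3, IL-5 and GM-CSF, at 391, 381 and 311 CPM versus 53.6, 27.6, 2.74 and 34.1 CPM. The 2 genes are close copies, so reads can be split between them in an unknown way. Il3ra, the IL-3 alpha chain, stood at 116, 139.7 and 80.03 CPM versus 23.5, 35.9, 20.3 and 32.5 CPM, so all the chains of the IL-3 receptor were higher. Tgfbr2, the ligand-binding TGF-beta receptor, stood at 225, 255 and 259 CPM versus 83.8, 52.7, 31.4 and 33.6 CPM, a log2 fold change of 2.29 ± 0.34 (SE, adjusted p = 0.00572). Flt3, which marks the exit from the LT-HSC stage, rose from 15.1 ± 4.61 to 76.02 ± 30.9 CPM. Il1rap, a co-receptor of Il1rl1 that human AML stem cells carry, and Il2rg, the common gamma chain, had log2 fold changes of 2.39 ± 0.45 (BH-adjusted p = 0.0126) and 2.19 ± 0.45 (BH-adjusted p = 0.0177). The 3 falls were Il7r, of lymphoid progenitors, at 1.78, 1.8999 and 3.05 CPM versus 12.1, 60.04, 52.9 and 22.7 CPM, Il18r1 at 1.71, 4.96 and 7.13 CPM versus 29.8, 69.2, 53.4 and 19.7 CPM, and Epor at 9.42, 3.06 and 21.6 CPM versus 29.1, 83.3, 77.4 and 87.1 CPM. The count of rises was 6 without AML1-ETO replicate 1, 6 without AML1-ETO replicate 2, 7 without AML1-ETO replicate 3 and 7 without control replicate 4. Calls lost without a library, given in brackets, were those of Il1rap, Il7r and Il18r1 (AML1-ETO replicates 1 and 2), Csf2rb and Il2rg (AML1-ETO replicates 1, 2 and 3 and control replicate 4) and Epor (AML1-ETO replicates 1 and 2 and control replicates 2 and 4). Epor reached the highest adjusted p then, 0.149.

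Downstream of these receptors, JAK kinases phosphorylate STAT factors, which enter the nucleus and induce PIM kinases and the SOCS inhibitors. Of 24 tested genes of this route 9 were higher and none lower (median 0.73), and the 3 AML1-ETO values lay above the 4 controls for 12 (18% of all genes tested). Stat5a (chromosome 11, 100859351 to 100885169) stood at 496, 570.2 and 528 CPM versus 157, 167, 211 and 162 CPM, a log2 fold change of 1.61 ± 0.17 (SE, adjusted p = 0.00170), and its neighbour Stat5b at 596, 635 and 637 CPM versus 298, 191, 312 and 252 CPM, a log2 fold change of 1.24 ± 0.20 (SE, adjusted p = 0.00763). Stat3, the mediator of IL-6 family and G-CSF signals, rose by 1.40 ± 0.24 (BH-adjusted p = 0.00932). Of the kinases, Jak1, Jak3 and Tyk2 had log2 fold changes of 1.03 ± 0.19 (BH-adjusted p = 0.0116), 1.52 ± 0.32 (BH-adjusted p = 0.0190) and 0.80 ± 0.17 (BH-adjusted p = 0.0197), while Jak2, which serves the erythropoietin and IL-3 receptors, did not pass (0.22 ± 0.20 (BH-adjusted p = 0.596)). Pim1, a kinase that STAT5 induces, stood at 2552, 2176 and 1364 CPM versus 373, 422, 236 and 293 CPM, a log2 fold change of 2.62 ± 0.29 (SE, adjusted p = 0.00195). Stat6 and Stat4 make up the 9, at 0.75 ± 0.17 (BH-adjusted p = 0.0245) and 1.08 ± 0.26 (BH-adjusted p = 0.0343). The STAT5 targets Cish (0.98 ± 0.68 (BH-adjusted p = 0.447)) and Socs2 (-1.52 ± 1.31 (BH-adjusted p = 0.561)), chosen after their values were seen, did not pass the test. The count of rises was 5 without AML1-ETO replicate 1, 2 without AML1-ETO replicate 2 and 5 without AML1-ETO replicate 3. Without the bracketed library, calls were lost for Stat5b and Stat3 (AML1-ETO replicate 2), Jak1 (AML1-ETO replicates 1 and 2) and Tyk2 (AML1-ETO replicates 2 and 3). Also lost in this way were Stat6 (AML1-ETO replicates 1, 2 and 3) and Jak3 and Stat4 (AML1-ETO replicates 1, 2 and 3 and control replicate 4). Stat4 reached the highest adjusted p then, 0.149.

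**Figure D4:**
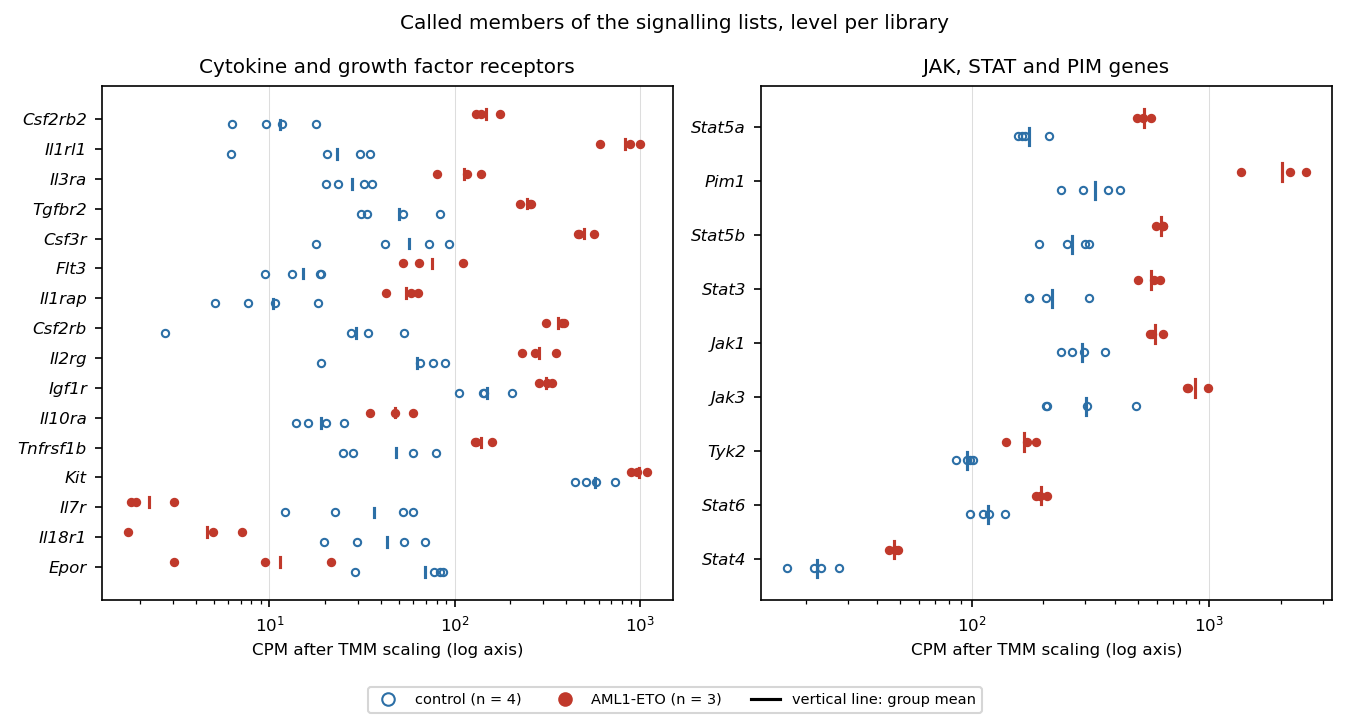
CPM per library on a log axis for the 16 called receptor genes (left) and the 9 called JAK, STAT and PIM genes (right), with open circles for the 4 controls, filled circles for the 3 AML1-ETO libraries and vertical lines at group means. The 3 falling receptors are at the bottom of the left panel, and all genes of the right panel are higher in AML1-ETO without overlap.

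Immediate early genes and feedback inhibitors of RAS-MAPK signalling are transcribed within minutes of a stimulus, and also during the handling of cells. Of 34 tested, 11 were higher and 2 lower, with a median of 1.19. Dusp2, a phosphatase that switches off MAP kinases, stood at 2433, 2011 and 1084 CPM versus 380.3, 288, 102 and 132 CPM. Rhob and Btg1 stood at 3038, 3346 and 1756 CPM versus 586, 807, 480.5 and 510.3 CPM and at 1510.2, 1092 and 735 CPM versus 245, 315, 274 and 208 CPM, and AML1-ETO replicate 3 was the lowest of its group for all 3 genes. Spry1 and Spred2, inhibitors upstream of RAF, fell; Spry1 stood at 5.598, 3.55 and 1.95 CPM versus 98.3, 84.6, 26.7 and 52.8 CPM. In the NF-kB list 6 of 25 were higher and none lower: Tnfaip3, the ubiquitin-editing inhibitor A20, stood at 4669, 2175 and 1046 CPM versus 363, 364, 499 and 293 CPM and Nfkbiz at 1677, 959 and 364 CPM versus 135, 119, 54.8 and 91.5 CPM, again lowest in AML1-ETO replicate 3. Nlrp3, the inflammasome sensor, was at 0 in the controls and at 201, 14.1 and 18.03 CPM in AML1-ETO. Tnip1, a partner of A20, rose from 56.7 ± 7.59 to 106 ± 5.14 CPM. The count of immediate early rises was 3 without AML1-ETO replicate 1, 3 without AML1-ETO replicate 2 and 5 without control replicate 4, and of NF-kB rises 2 without AML1-ETO replicate 1 and 3 without AML1-ETO replicate 2. No call remained without the bracketed library for Nlrp3 (AML1-ETO replicate 1), Spred2 (AML1-ETO replicates 1 and 2) and Tnip1 (AML1-ETO replicates 1, 2 and 3). Spred2 reached the highest adjusted p then, 0.102.

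Poly(I:C) induces interferon, and the interferon list was mixed, with 5 of 32 members higher and 4 lower. Ifitm1 and Ifitm3, membrane proteins that block viral entry, stood at 3.03, 3.96 and 1.49 CPM versus 183, 164, 33.002 and 84.02 CPM and at 28.9, 15.5 and 40.5 CPM versus 155, 233, 58.4 and 149 CPM; Ifit2 and Cmpk2 fell, with log2 fold changes of -1.47 ± 0.31 and -2.76 ± 0.44. The rises were Trim30a, Ddx58, Irgm1, Usp18 and Oasl2. Of 24 genes of antigen presentation 2 were higher, a share near the 7.59% of all genes. H2-D1, a class I heavy chain, rose from 1838 ± 417 to 3907 ± 633 CPM. Tap2, a peptide transporter, rose from 149 ± 13.2 to 259.6 ± 44.4 CPM. Not called without the library in brackets were Cmpk2 (AML1-ETO replicate 2), Ifitm3 (AML1-ETO replicates 1 and 2) and Ifit2 (AML1-ETO replicates 1, 2 and 3). Likewise lost were Trim30a, Ddx58, H2-D1 and Tap2 (AML1-ETO replicates 1, 2 and 3 and control replicate 4), Irgm1 (AML1-ETO replicates 1, 2 and 3 and control replicates 1 and 4) and Usp18 (AML1-ETO replicates 1, 2 and 3 and control replicates 2 and 4). The same held for Oasl2 (AML1-ETO replicates 1, 2 and 3 and control replicates 3 and 4). Oasl2 reached the highest adjusted p then, 0.197.

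DNA replication needs the MCM helicase to be loaded in G1 and nucleotides and polymerases to be made for S phase. Of 27 genes of this list 20 were lower and none higher, with a median of -1.98. Licensing factors fell together: Cdt1, which loads the helicase, stood at 29.1, 20.4 and 33.3 CPM versus 70.2, 116, 114 and 102 CPM, Mcm5 at 52.7, 54.5 and 76.8 CPM versus 177, 258, 462 and 351 CPM and Mcm2 at 90.5, 83.2 and 105 CPM versus 214, 268, 421 and 371 CPM. Nucleotide synthesis (Tk1, Rrm1, Rrm2, Tyms, Dut) and the fork (Pole, Lig1, Cdc45, Gins2) were represented as well. Mitotic genes were lower for 17 of 27 and higher for none, with a median of -2.12. Aurkb, the kinase of the chromosomal passenger complex, stood at 4.02, 7.52 and 14.01 CPM versus 52.8, 57.9, 42.7 and 63.6 CPM, and Cenpa, the centromeric histone, at 79.8, 53.4 and 48.1 CPM versus 147, 159.6, 175 and 177 CPM. Cdc20 and Bub1b, an activator of the anaphase complex and a checkpoint kinase, had log2 fold changes of -2.25 ± 0.38 (BH-adjusted p = 0.00887) and -2.19 ± 0.38 (BH-adjusted p = 0.0101). The counts depended on single libraries: replication falls were 8 without AML1-ETO replicate 1, 3 without AML1-ETO replicate 2 and 12 without AML1-ETO replicate 3, and mitotic falls 2 without AML1-ETO replicate 1, 0 without AML1-ETO replicate 2 and 7 without control replicate 4. The medians over the tested members do not rest on calls, and stood beside 0.03 for all genes. Lost on leaving out the library in brackets were Mcm5, Mcm2, Rrm1, Aurkb and Cenpa (AML1-ETO replicate 2), Dut, Lig1, Cdc20 and Bub1b (AML1-ETO replicates 1 and 2) and Tyms, Cdc45 and Gins2 (AML1-ETO replicates 1, 2 and 3). The same held for Rrm2 (AML1-ETO replicates 1 and 2 and control replicate 4). Rrm2 reached the highest adjusted p then, 0.145.

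Regulators of G1 were split, 3 of 22 higher and 7 lower. Cdk6, the G1 kinase whose level sets how fast stem cells leave quiescence, stood at 1851, 2299.7 and 1916 CPM versus 327, 192, 731 and 422 CPM, a log2 fold change of 2.28 ± 0.40 (SE, adjusted p = 0.0101). The other rises were the brakes Cdkn1b and Rbl2. D cyclins fell, Ccnd1 at 0.461, 0.661 and 3.697 CPM versus 42.2, 27.1, 45.3 and 18.01 CPM and Ccnd2, and so did E2f1 (-1.51 ± 0.29 (BH-adjusted p = 0.0136)). Myc did not pass the test, at 0.01 ± 0.19 (BH-adjusted p = 0.992), unlike Mycn above. The count of falls was 1 without AML1-ETO replicate 1, 1 without AML1-ETO replicate 2 and 4 without AML1-ETO replicate 3. The calls that 1 library decided, in brackets, were Cdk6 (AML1-ETO replicate 2), Ccnd1 and E2f1 (AML1-ETO replicates 1 and 2) and Cdkn1b and Rbl2 (AML1-ETO replicates 1, 2 and 3 and control replicate 4). Further such calls were Ccnd2 (AML1-ETO replicates 1 and 2 and control replicates 1 and 4). Cdkn1b reached the highest adjusted p then, 0.128.

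Among p53 targets and damage response genes 5 of 27 were higher and 3 lower. Sesn1, a stress-induced inhibitor of mTORC1 signalling, rose from 79.7 ± 14.4 to 175 ± 23.6 CPM. Btg2 and Gadd45b, which are also immediate early genes, stood at 1975, 1146 and 436 CPM versus 281, 246, 282 and 270.1 CPM and at 362, 337 and 121 CPM versus 59.9, 27.7, 9.13 and 5.5002 CPM, lowest of the AML1-ETO group in replicate 3. Chek1, the S-phase checkpoint kinase, was one of the falls (-2.45 ± 0.54 (BH-adjusted p = 0.0229)), and neither Trp53 (0.14 ± 0.19 (BH-adjusted p = 0.727)) nor its target Cdkn1a (-0.09 ± 0.44 (BH-adjusted p = 0.946)) passed the test. In the BCL2 family, which sets the threshold of mitochondrial cell death, 5 of 15 were called. The pro-death BH3 genes Bcl2l11 (BIM), Bmf and Bid rose, Bcl2l11 at 163, 139.8 and 122 CPM versus 33.4, 27.3, 22.4 and 40.5 CPM, a log2 fold change of 2.20 ± 0.24 (SE, adjusted p = 0.00195). Of the survival genes, Bcl2 stood at 16.2, 6.28 and 22.8 CPM versus 78.6, 74.4, 233 and 122 CPM, a log2 fold change of -3.07 ± 0.57 (SE, adjusted p = 0.0126), whereas Bcl2l1 (BCL-X) rose from 29.1 ± 3.46 to 70.4 ± 21.2 CPM. Calls lost without a library, given in brackets, were those of Sesn1 (AML1-ETO replicate 2), Btg2 and Bcl2 (AML1-ETO replicates 1 and 2) and Bcl2l1 (AML1-ETO replicates 2 and 3). Also lost in this way were Bmf (AML1-ETO replicates 1, 2 and 3), Gadd45b (AML1-ETO replicates 1, 2 and 3 and control replicate 2) and Chek1 (AML1-ETO replicates 1, 2 and 3 and control replicate 4). To these came Bid (AML1-ETO replicates 1, 2 and 3 and control replicates 1 and 2). Bid reached the highest adjusted p then, 0.182.

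Ribosome biogenesis, the making of ribosomal RNA and its assembly in the nucleolus, was lower for 11 of 29 genes and higher for none, with a median of -0.76. Nhp2, a core protein of the particles that pseudouridylate RNA, stood at 37.6, 28.4 and 36.4 CPM versus 60.8, 114, 116 and 107 CPM, and Nop16, Utp20 and Nolc1 had log2 fold changes of -1.08 ± 0.22 (BH-adjusted p = 0.0190), -1.26 ± 0.27 (BH-adjusted p = 0.0216) and -1.40 ± 0.31 (BH-adjusted p = 0.0250). Fbl, the methyltransferase fibrillarin, and Polr1a, the large subunit of RNA polymerase I, were among the falls. The count of falls was 0 without AML1-ETO replicate 1, 0 without AML1-ETO replicate 2, 2 without AML1-ETO replicate 3 and 4 without control replicate 4. Without the bracketed library, calls were lost for Nhp2 (AML1-ETO replicates 1 and 2), Nop16, Fbl and Polr1a (AML1-ETO replicates 1, 2 and 3) and Utp20 and Nolc1 (AML1-ETO replicates 1, 2 and 3 and control replicate 4). Fbl reached the highest adjusted p then, 0.147.

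Amino acid transport and one-carbon metabolism, which feeds nucleotide synthesis, was lower for 10 of 28 genes and higher for none, with a median of -0.92. Asns, asparagine synthetase, stood at 0, 0.496 and 0.908 CPM versus 21.8, 67.3, 53.02 and 57.6 CPM, a log2 fold change of -6.71 ± 0.96 (SE, adjusted p = 0.00501). The glutamine transporter Slc38a5 was at 0 in all AML1-ETO libraries with 9.402 to 42.98 CPM in the controls, at least 413-fold lower. Enzymes of the folate cycle fell in the cytosol (Mthfd1, Shmt1) and in mitochondria (Mthfd1l, Mthfd2, Shmt2). Mthfd1 stood at 51.2, 44.6 and 50.8 CPM versus 119, 330.4, 368 and 348 CPM and Mthfd1l at 46.7, 53.9 and 49.9 CPM versus 89.6, 89.7, 91.8 and 97.7 CPM. Slc7a8, which rose, is no member of that list. The count of falls was 3 without AML1-ETO replicate 1, 2 without AML1-ETO replicate 2, 3 without AML1-ETO replicate 3 and 6 without control replicate 4. No call remained without the bracketed library for Mthfd1 (AML1-ETO replicate 2), Shmt1 and Mthfd1l (AML1-ETO replicates 1, 2 and 3) and Mthfd2 and Shmt2 (AML1-ETO replicates 1, 2 and 3 and control replicate 4). Shmt1 reached the highest adjusted p then, 0.147.

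Of 40 genes of the TCA cycle and the respiratory chain 6 were lower and none higher. They were Idh3a at 45.3, 40.5 and 50.1 CPM versus 103, 102, 124 and 94.4 CPM, Cs, Mdh2, Sdhd, Ndufa10 and Ndufv1, with log2 fold changes of -1.22 ± 0.19 for Idh3a and -0.75 ± 0.17 for Cs, the citrate synthase. In glycolysis and the pentose phosphate route 1 of 31 rose and 3 fell, 12.9% in either direction beside 12.3% of all genes. Slc2a3, the glucose transporter GLUT3, stood at 497, 416 and 380.0 CPM versus 168, 137, 77.2 and 76.7 CPM. Ldhb, the lactate dehydrogenase subunit, had no count in AML1-ETO libraries with 6.33 to 56.6 CPM in the controls, at least 414-fold lower. Slc16a1, a lactate and pyruvate carrier, fell from 94.3 ± 19.5 to 21.3 ± 11.9 CPM, and Hk2 from 108 ± 60.4 to 34.03 ± 12.7 CPM. The count of TCA and respiratory falls was 1 without AML1-ETO replicate 1, 0 without AML1-ETO replicate 2, 1 without AML1-ETO replicate 3, 10 without control replicate 1 and 2 without control replicate 4. Not called without the library in brackets were Idh3a (AML1-ETO replicate 2), Slc16a1 (AML1-ETO replicates 2 and 3) and Ndufa10 (AML1-ETO replicates 1, 2 and 3). The same held for Cs and Sdhd (AML1-ETO replicates 1, 2 and 3 and control replicate 4), Hk2 (AML1-ETO replicates 1, 2 and 3 and control replicates 2 and 4) and Mdh2 and Ndufv1 (AML1-ETO replicates 1, 2 and 3 and control replicates 2, 3 and 4). Mdh2 reached the highest adjusted p then, 0.218.

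Iron genes made up most calls of the list of antioxidants and iron, in which 5 of 34 fell and none rose. Steap3, the ferrireductase of endosomes, stood at 7.57, 6.77 and 9.21 CPM versus 37.7, 97.7, 119 and 69.03 CPM, a log2 fold change of -3.36 ± 0.43 (SE, adjusted p = 0.00322). Tfrc, through which transferrin enters, stood at 38.1, 20.7 and 22.8 CPM versus 113, 185, 383 and 166 CPM, and Slc11a2, which moves iron out of the endosome, at 29.1, 28.99 and 35.4 CPM versus 52.8, 72.1, 91.5 and 88.97 CPM. With Tfr2 above, transferrin uptake, iron reduction and export from the endosome each had a falling member. These genes are also high in erythroid cells, whose summed markers were 598.8 to 869.8 CPM in AML1-ETO and 1533 to 3678 CPM in control libraries; the part of erythroid admixture was not tested. Prdx6 and Prdx2, peroxiredoxins, were the other falls. Lost on leaving out the library in brackets were Tfrc (AML1-ETO replicate 2), Slc11a2 (AML1-ETO replicates 1, 2 and 3) and Prdx6 (AML1-ETO replicates 2 and 3 and control replicate 4). Further such calls were Prdx2 (AML1-ETO replicates 1, 2 and 3 and control replicate 4). Prdx2 reached the highest adjusted p then, 0.155.

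Lysosome genes were higher for 4 and lower for 3 of 34, 20.6% in either direction beside 12.3% of all genes. Ctsd, the aspartic protease, rose from 143 ± 30.1 to 333 ± 32.5 CPM, and Sqstm1, the autophagy receptor p62, stood at 3413, 1600.2 and 605 CPM versus 360.0, 391, 223 and 262 CPM, while the cysteine proteases Ctss, Ctsl and Ctsh fell. Of 31 chaperone and unfolded protein genes 2 rose and 2 fell, 12.9% in either direction beside 12.3% of all genes. Creb3l1, a membrane-bound factor cleaved under stress of the endoplasmic reticulum, was at 0 in the controls and at 60.1, 108 and 87.4 CPM in AML1-ETO. Hspd1, the mitochondrial chaperonin, fell from 408 ± 88.8 to 169 ± 20.6 CPM. Calr and Sdf2l1, of the endoplasmic reticulum, had log2 fold changes of 0.67 ± 0.18 (BH-adjusted p = 0.0472) and -1.75 ± 0.45 (BH-adjusted p = 0.0414). The calls that 1 library decided, in brackets, were Ctsd (AML1-ETO replicate 2), Ctsh and Hspd1 (AML1-ETO replicates 1 and 2) and Ctsl (AML1-ETO replicates 2 and 3). Also lost in this way were Ctss (AML1-ETO replicates 1, 2 and 3), Sqstm1 (AML1-ETO replicates 1 and 2 and control replicate 4) and Sdf2l1 (AML1-ETO replicates 1, 2 and 3 and control replicates 2 and 4). To these came Calr (AML1-ETO replicates 1, 2 and 3 and control replicates 1, 3 and 4). Calr reached the highest adjusted p then, 0.227.

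Lipid genes are those the series title names as a target. In fatty acid synthesis and desaturation 2 of 25 fell and none rose, both desaturases of polyunsaturated fatty acids. Fads2, the delta-6 desaturase, stood at 2.96, 8.67 and 2.33 CPM versus 72.97, 61.4, 117 and 95.7 CPM, a log2 fold change of -4.23 ± 0.54 (SE, adjusted p = 0.00326), and Fads1 at 34.3, 61.2 and 48.5 CPM versus 143, 87.7, 102 and 134 CPM. Fasn, the fatty acid synthase, did not pass (-0.17 ± 0.31 (BH-adjusted p = 0.821)). In fatty acid oxidation 2 of 32 rose, Ppard (1.502 ± 0.26 (BH-adjusted p = 0.0101)), a nuclear receptor for fatty acids, and Acadl, and the carnitine enzyme Cpt1a did not pass (0.89 ± 0.29 (BH-adjusted p = 0.0844)). Shares of 2 in 25 and 2 in 32 lie near those of all genes. Of 18 genes of fatty acid uptake, binding and activation 1 rose and 2 fell, 16.7% in either direction beside 12.3% of all genes. Hcar2, a receptor for niacin and ketone bodies, was at 0 in the controls and at 216, 169.8 and 56.04 CPM in AML1-ETO. Acsl3 was one of the 2 falls. Of 20 triglyceride genes 1 rose, G0s2, an inhibitor of lipolysis that was at 0 in the controls. That share is no higher than the 7.59% of all genes. Calls lost without a library, given in brackets, were those of Ppard and Acsl3 (AML1-ETO replicates 1 and 2), Fads1 (AML1-ETO replicates 1, 2 and 3 and control replicate 4) and G0s2 (AML1-ETO replicates 1, 2 and 3 and control replicates 2 and 4). To these came Acadl (AML1-ETO replicates 1, 2 and 3 and control replicates 1, 3 and 4). Acadl reached the highest adjusted p then, 0.165.

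Cholesterol genes were lower for 6 of 34 and higher for none (median -0.79). Sqle, the first oxygen-requiring step, stood at 3.29, 2.73 and 2.92 CPM versus 40.5, 32.7, 30.1 and 44.6 CPM, a log2 fold change of -3.63 ± 0.37 (SE, adjusted p = 0.00148), and Cyp51, the next demethylase, at 2.11, 2.64 and 2.72 CPM versus 31.4, 19.4, 47.4 and 54.04 CPM. Sc5d and Idi1 were among the 6. Of 36 phospholipid and sphingolipid genes 4 were higher and 2 lower, 16.7% in either direction beside 12.3% of all genes. Sphk1, which makes sphingosine 1-phosphate, stood at 2.63, 0.909 and 2.33 CPM versus 31.2, 124, 34.4 and 117 CPM, a log2 fold change of -5.27 ± 0.73 (SE, adjusted p = 0.00452), while Sptlc2, a subunit of the enzyme that begins sphingolipid synthesis, stood at 183, 199 and 198 CPM versus 73.5, 35.1, 31.6 and 51.4 CPM, a log2 fold change of 2.01 ± 0.29 (SE, adjusted p = 0.00538). Mboat7, which puts arachidonic acid into phosphatidylinositol, rose from 61.5 ± 9.53 to 152 ± 15.2 CPM, and Pla2g12a, a secreted phospholipase, fell from 49.97 ± 21.3 to 5.996 ± 1.78 CPM. Of 21 eicosanoid genes 4 rose and 2 fell. Among the rises were Alox5ap, which presents arachidonic acid to 5-lipoxygenase, at 175, 169 and 161 CPM versus 36.4, 57.1, 22.96 and 43.5 CPM, Mgst2 and Ltc4s, and Ptgir, the prostacyclin receptor, stood at 51.5, 84.2 and 93.5 CPM versus 1.395, 0, 0 and 0 CPM. Tbxas1, thromboxane synthase, stood at 15.4, 8.59 and 26.9 CPM versus 210.2, 132, 98.5 and 106 CPM, a log2 fold change of -3.01 ± 0.45 (SE, adjusted p = 0.00603); Ggt5 was the other fall. Alox5ap and Ltc4s are mast cell genes as well, and their part in the mast cell signal cannot be told apart from this list. Without the bracketed library, calls were lost for Ptgir (AML1-ETO replicate 2), Mgst2 (AML1-ETO replicates 1 and 2) and Ltc4s (AML1-ETO replicates 1, 2 and 3). Likewise lost were Ggt5 (AML1-ETO replicates 1, 2 and 3 and control replicates 1 and 2), Idi1 (AML1-ETO replicates 1, 2 and 3 and control replicates 2 and 3) and Sc5d (AML1-ETO replicates 1, 2 and 3 and control replicates 2 and 4). Idi1 reached the highest adjusted p then, 0.184.

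Of 52 transcription factors of blood 14 were higher and 5 lower. Ikzf2 (Helios), which restrains myeloid genes in stem cells, stood at 371, 553 and 331 CPM versus 80.6, 31.1, 58.4 and 56.4 CPM, a log2 fold change of 2.88 ± 0.33 (SE, adjusted p = 0.00209). Hmga2, an architectural factor of fetal and expanding stem cells, stood at 136, 111 and 71.1 CPM versus 18.3, 19.05, 22.7 and 12.9 CPM. Lyl1, Erg, Fli1, Gata2, Runx1 and Runx2 rose as well, Lyl1 from 147 ± 31.98 to 354 ± 22.5 CPM. Bcl11a, required for lymphoid development, was a fall, at 74.2, 50.6 and 82.7 CPM versus 254, 175, 175 and 229 CPM, together with Hoxa9, Hoxa5, Ikzf3 and Irf4. The count of rises was 4 without AML1-ETO replicate 1, 2 without AML1-ETO replicate 2, 6 without AML1-ETO replicate 3, 9 without control replicate 2 and 8 without control replicate 4, and of falls 1 without AML1-ETO replicate 1, 1 without AML1-ETO replicate 2, 2 without AML1-ETO replicate 3, 3 without control replicate 2, 8 without control replicate 3 and 3 without control replicate 4. Of 45 chromatin regulators 4 rose and none fell: Tet2, which oxidises methylcytosine, from 44.1 ± 16.9 to 118 ± 24.1 CPM, Kdm6a from 79.01 ± 8.61 to 139.8 ± 13.9 CPM, Kdm5b from 85.8 ± 27.8 to 208 ± 11.3 CPM and Ezh1 from 77.6 ± 26.1 to 166 ± 23.9 CPM. That share, 4 in 45, is near the 7.59% of all genes. No call remained without the bracketed library for Lyl1 and Runx1 (AML1-ETO replicate 2), Hoxa9, Tet2, Kdm6a and Kdm5b (AML1-ETO replicates 1, 2 and 3) and Fli1 (AML1-ETO replicates 1, 2 and 3 and control replicate 2). The same held for Erg (AML1-ETO replicates 1, 2 and 3 and control replicate 4), Hoxa5 and Ezh1 (AML1-ETO replicates 1, 2 and 3 and control replicates 1 and 2) and Gata2, Runx2 and Ikzf3 (AML1-ETO replicates 1, 2 and 3 and control replicates 2 and 4). Further such calls were Irf4 (AML1-ETO replicates 1, 2 and 3 and control replicates 1, 2 and 4). Irf4 reached the highest adjusted p then, 0.208.

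Developmental signalling genes were higher for 7 and lower for 4 of 41. On the Wnt side Frzb, a secreted inhibitor, was at 0 in the controls and at 39.4, 70.96 and 50.2 CPM in AML1-ETO, at least 1091-fold higher, and the receptor Fzd6 stood at 70.9, 90.2 and 52.5 CPM versus 9.46, 12.5, 12.3 and 12.3 CPM, while Fzd7 and the nuclear effector Tcf7 fell. In the TGF-beta branch Tgfb1, Tgfbr2, Tgfbr3 and Smad1 were all rises. Of 32 adhesion genes 4 rose and 2 fell, 18.8% in either direction beside 12.3% of all genes. Itga9, an integrin that binds tenascin and osteopontin, stood at 212, 187 and 222 CPM versus 13.4, 2.499, 4.43 and 4.06 CPM, a log2 fold change of 5.08 ± 0.55 (SE, adjusted p = 0.00186). Itgal, the LFA-1 alpha chain, and Jup, plakoglobin, had log2 fold changes of 1.80 ± 0.30 (BH-adjusted p = 0.00870) and 2.31 ± 0.58 (BH-adjusted p = 0.0371), and Cd44 and Alcam were lower. In the list drawn from t(8;21) leukaemia 5 of 17 were higher (Lat2, Cd34, Plcg1, Jup and Kit) and 3 lower (Bcl2, Tspan32 and Ccnd2). Plcg1, the phospholipase of receptor signalling, stood at 358, 411 and 333 CPM versus 144, 70.8, 54.3 and 75.7 CPM. Not called without the library in brackets were Smad1 and Itgal (AML1-ETO replicate 2), Fzd7 and Bcl2 (AML1-ETO replicates 1 and 2) and Tgfb1 (AML1-ETO replicates 2 and 3). Further such calls were Tspan32 (AML1-ETO replicates 1, 2 and 3 and control replicate 4), Ccnd2 (AML1-ETO replicates 1 and 2 and control replicates 1 and 4) and Jup (AML1-ETO replicates 1, 2 and 3 and control replicates 1 and 4). Also lost in this way were Tgfbr3 and Cd44 (AML1-ETO replicates 1, 2 and 3 and control replicates 2 and 4), Alcam (AML1-ETO replicates 1, 2 and 3 and control replicates 1, 2 and 4) and Kit (AML1-ETO replicates 1, 2 and 3 and control replicates 2, 3 and 4). Alcam reached the highest adjusted p then, 0.196.

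Some genes were counted in one genotype alone. Grm6, a glutamate receptor of the retina, was at 84.9, 131 and 61.1 CPM in AML1-ETO and at 0 in the controls, at least 1880.4-fold higher than the control floor of 0.049 CPM. Creb3l1 was at least 1737-fold and Hcar2 at least 3006-fold higher. In the other direction Arhgef17, a guanine nucleotide exchange factor, stood at 31.1, 18.2, 13.9 and 28.9 CPM in the controls and at 0 in AML1-ETO (floor 0.0702 CPM), at least 328-fold lower. Gja1, connexin 43, which couples stem cells to stroma, stood at 9.83, 21.3, 31.2 and 24.1 CPM in the controls and at 0 in AML1-ETO, at least 308-fold lower. Slc6a15, an amino acid transporter, and Ptpn3, a tyrosine phosphatase, were at least 294-fold and 226-fold lower. All of these calls held in every fit that left out 1 library.

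The effect in LT-HSCs was set against that in the GMPs of the same study by a test of the difference in 1 fit of all 14 libraries, in which 1021 of 16116 genes (6.34%) were called. In GMPs alone 1319 of 13981 genes (9.43%) were called. Of 36 genes described above by their p or their absence in 1 genotype, with Runx1 and Runx1t1, 28 were called, and since they were picked for their change in LT-HSCs the share is read no further. Cd34 rose in LT-HSCs and not in GMPs, where its means were 370.0 (control) and 301 CPM (AML1-ETO) (GMP log2 fold change -0.30, adjusted p = 0.406); the effects differed by 3.76 ± 0.34 (adjusted p = 0.000333). For Cpa3 the GMP means were 98.7 (control) and 799 CPM (AML1-ETO), a rise there too (3.02, adjusted p = 0.00427), and the difference was 5.73 ± 0.67 (adjusted p = 0.000616). Lat2 and Tent5a, with LT-HSC log2 fold changes of 3.84 and 4.19, had 0.34, adjusted p = 0.391 and 0.34, adjusted p = 0.370 in GMPs, and Serpinb1a 1.28, adjusted p = 0.0462. Tnfaip2 fell in LT-HSCs and rose in GMPs, from and to means of 95.3 (control) and 180.3 CPM (AML1-ETO), with a difference of -3.96 ± 0.39 (adjusted p = 0.000333). Pole and Timeless had differences of -2.16 ± 0.30 (adjusted p = 0.00139) and -2.17 ± 0.29 (adjusted p = 0.00127): in GMPs Pole did not pass the test (-0.23, adjusted p = 0.422) and Timeless fell less (-0.44, adjusted p = 0.0349). Tfr2 did not pass the test in GMPs (0.05, adjusted p = 0.931), and the effects differed by -2.40 ± 0.34 (adjusted p = 0.00183). Runx1t1 did not differ by the test (0.11 ± 1.22 (adjusted p = 0.99995)). Runx1 differed by 1.03 ± 0.25 (adjusted p = 0.0265), a call that was lost without AML1-ETO LT-HSC replicate 2. The called differences of Abcb4 and Igll1 were lost without AML1-ETO LT-HSC replicate 1 or 2, and that of Abcb4 without replicate 3 as well.

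**Figure D5:**
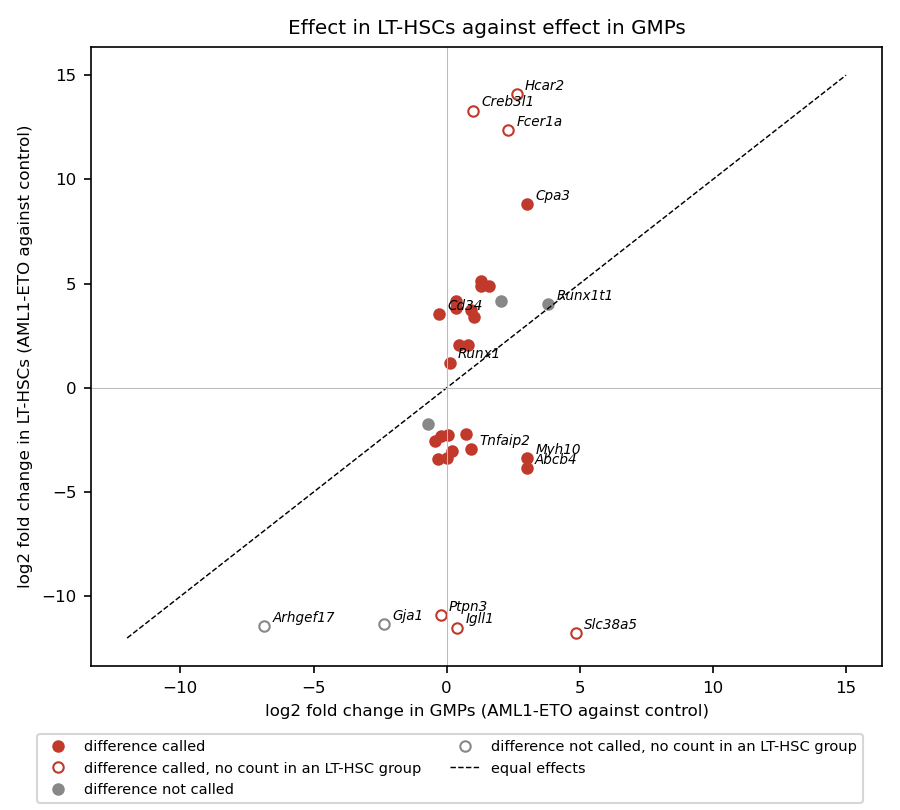
Log2 fold change of AML1-ETO over control in GMPs (horizontal axis) and LT-HSCs (vertical axis) for 33 of the 36 genes, those tested in both cell types; red marks a called difference, open circles mark genes with no count in 1 LT-HSC group, whose fitted values depend on the prior count, and the dashed line marks equal effects. Runx1t1 lies at 4.00 in LT-HSCs and 3.82 in GMPs, near the line, and Cpa3 lies at 8.83 and 3.02.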

How the data were processed

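Gene expression was measured by RNA sequencing of LT-HSCs and GMPs; the labels' protocols name an RNeasy Plus Micro Kit for RNA and both a SMART-Seq v4 Ultra Low Input and a SMARTer Stranded kit for libraries, and do not tie a kit to a library. The authors deposited raw counts per gene symbol, whole numbers without normalisation, for 54532 lines in 14 columns, each matched by name to a sample. Per the submitters' processing notes HISAT2 2.0.5, featureCounts 1.5.0-p3 and mm10 were used; the annotation release and strand setting were not stated in these sources. Overlapping and antisense genes and near-identical copies (immunoglobulin segments, mast cell proteases) may therefore share or lose reads. Repeated symbols (105 lines) were kept apart, and 27 lines with a date in place of a symbol (0.140% of counts) were tested and not named.

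The 7 LT-HSC libraries were filtered with filterByExpr, scaled by TMM and tested with edgeR 4.0.16 in R 4.3.3 (glmQLFit and glmQLFTest, two-sided, Benjamini-Hochberg, written BH, 5 residual degrees of freedom, biological coefficient of variation 0.785), a test checked on simulated data. DESeq2 1.42.0, limma 3.58.1 (voom), other scalings and filters, a replicate block and leaving out each library were alternatives. For genes without a count in a group, folds were taken to 3 counts per group, a limit that reflects counting error alone because no molecular identifiers were counted. Coordinates come by symbol from GENCODE M21 (mm10), which held 98.39% of the symbols as a single gene.

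The members and the 40 gene lists were chosen with earlier results of these data known, so the lists are described and not tested. Named genes are Runx1 and Runx1t1, the 12 rises and 12 falls with the smallest p among called genes without overlap and with at least 5 CPM in both groups, up to 4 called members of each list by p (with fewer, the most abundant members until 2 are named), and the 6 rises from 0 and 6 falls to 0 with the smallest p; predicted genes, pseudogenes, small RNAs and receptor segments were passed over outside the lists. Others complete a list's calls or were chosen after their values were seen. A few genes that the rule or the lists name are not reported here, and counts over genes include them unless a smaller number is given.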

Additional observations from a re-analysis of the deposited data

Results flagged for a closer look

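In 14 of 172 sets of 4 control LT-HSC values the highest or the lowest library lay apart from the other 3 by Dixon's criterion; chance gives about 1 set in 20. Control replicate 2 was the highest for Igkc (22726 CPM) and for the shares of all counts taken by immunoglobulin genes (10.41%), ribosomal protein genes (7.609%) and the 50 most abundant genes (19.56%), and for Il2rb (63.41 CPM). Control replicate 3 was the highest for Tcf7 (547.6 CPM), Lck (87.33 CPM) and Gp5 (65.81 CPM). Control replicate 1 was the highest for Acsl3 (45.31 CPM), Ptgir (1.395 CPM) and Hk2 (198.5 CPM) and the lowest for Fzd6 (9.463 CPM), Mthfd1 (119.4 CPM) and Nhp2 (60.84 CPM).

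By the test of the difference itself, the AML1-ETO effect differed between LT-HSCs and GMPs for 28 of 36 genes examined. Over all genes the test called 1021 of 16116 (6.34%). Apart from Runx1 and Runx1t1, the 36 were picked for their change in LT-HSCs, so their share is read no further. Values are the LT-HSC minus the GMP log2 fold change. The effect was more positive in LT-HSCs by 1.03 for Runx1, 3.78 for Serpinb1a, 2.75 for Cep85, 3.51 for Osm, 2.31 for Nudt7, 3.42 for Lat2, 3.77 for Tent5a, 5.73 for Cpa3, 3.24 for Slc7a8, 3.76 for Cd34, 1.53 for Fxyd5 and 1.20 for Rasal3. It was more negative in LT-HSCs by -3.14 for Zfp385a, -6.95 for Abcb4, -3.00 for Aplp2, -3.27 for Srgap3, -2.40 for Tfr2, -3.96 for Tnfaip2, -2.17 for Timeless, -2.16 for Pole, -6.46 for Myh10 and -3.45 for Irak3. Genes without a count in 1 LT-HSC group had differences of 12.32 for Creb3l1, 11.47 for Hcar2 and 10.06 for Fcer1a and of -11.99 for Igll1, -16.70 for Slc38a5 and -10.74 for Ptpn3, which depend on the prior count and are no measure of size.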

How the results depend on the processing

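In LT-HSCs the counts of 1107 rises and 684 falls stayed within 1.5 times under upper-quartile and DESeq2 size factors, without immunoglobulin genes, without a filter on low counts, with a minimum of 1 CPM in 3 libraries, and without control replicates 2 and 3 together, an alternative added after seeing the data (1079 and 654). DESeq2 gave 1695 falls and limma-voom 391, and 1 fit of all 14 libraries gave 1669 rises and 1497 falls; the cause was not tested. Leaving out 1 library gave 223 to 1373 rises and 111 to 1003 falls, with fewer samples in the fit. The labels do not say whether the replicate numbers pair the samples. The deviations of same-numbered libraries correlated at -0.0399, -0.0588 and -0.0742, and none correlated best with its own number. Groups of 3 and 4 libraries are too small for these values to show or exclude pairing. With the replicate block 312 genes were higher and 213 lower. The 1021 called differences between LT-HSCs and GMPs became 213 with the replicate block, which ended 8 of the 28 described (Runx1, Zfp385a, Srgap3, Rasal3, Abcb4, Igll1, Ptpn3 and Slc38a5), 2047 with DESeq2 and 471 to 1477 without 1 LT-HSC library. Of the 163 called genes chosen by the naming rule 91 were called without each library in turn and 72 in every fit; 71 were lost without AML1-ETO replicate 2, 50 without replicate 1, 36 without replicate 3, 51 with the block and 25 with limma-voom, and none changed direction. The difference in immunoglobulin share ran from -5.09 to -2.26 percentage points and that in genes with a count from 2716 to 3790 without 1 library; those in mitochondrial share (-0.261 to -0.0822), in the share of the 50 most abundant genes (-0.46 to 2.43) and in genes at 1 CPM (-486.7 to 487.7) had exact permutation p of 0.2 to 0.943 with all libraries. By mean level, 15.02% of genes under 1 CPM were called, all 100 of them higher. The shares were 4.62% of those from 1 to 5 CPM and 13.1% of those from 20 to 100 CPM. Genes under 1 CPM can pass the filter through the AML1-ETO libraries alone, so their direction is read no further.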
